A study of Mus musculus with 6 samples.

Results

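The 10 genes described here belong to the circadian clock: the repressors Per1, Per2, Per3, Cry1 and Cry2, the activators Clock and Npas2, the nuclear receptors Nr1d1 and Nr1d2, and the output factor Dbp. They were chosen by gene symbol in a table of normalized read counts, and all 10 were found among its 17987 genes and passed the filter on low values. RNA had been extracted from lung tumor specimens of 3 Usp24C1695A mice (M134, M145 and M164, M standing for mouse before its number) and 3 Usp24WT mice (M1354, M1364 and M1370), with 1 library per mouse. In Usp24C1695A mice the catalytic cysteine of the deubiquitinase USP24 is exchanged for alanine by CRISPR-Cas9 editing. The sample titles abbreviate this genotype as KO, although the gene is mutated and not deleted. All mice, Usp24WT included, carried the oncogene EgfrL858R under a tetracycline-responsive promoter on a C57BL/6J background and were given doxycycline (0.5 g/l) for 10 weeks. The activator rtTA was driven by the promoter of Scgb1a1, a gene of airway club cells. The labels give neither age, sex, batch nor the time of day at which the specimens were taken, and most clock genes are known to change over the day.

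In mammalian cells CLOCK, or its paralog NPAS2, pairs with BMAL1 and binds E-boxes, and this switches on the Per and Cry genes, Nr1d1, Nr1d2 and Dbp. The PER and CRY proteins then block the activators, and the REV-ERB receptors encoded by Nr1d1 and Nr1d2 repress Bmal1, Npas2 and Nfil3 through ROR elements. In mouse lung, as in other peripheral tissues, Bmal1 and Npas2 therefore peak at about the opposite time of day from Dbp and Per3, with Nr1d1 early, Per1 and Per2 later and Cry1 later still. A single specimen per mouse shows a single moment of this cycle.

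The libraries held 7167000 to 12516561 reads in Usp24C1695A mice and 8950184 to 14650273 reads in Usp24WT mice, recovered from the normalized values, and each of the 10 genes had 19 to 4057 reads in each library. The alveolar type 2 markers summed to 140730 to 406040 normalized counts in Usp24C1695A specimens and 448410 to 507180 in Usp24WT specimens, so lung epithelium was present in all of them. Mouse M164 stood apart: mitochondrial transcripts made up 17.2% of its reads, against 1.74 to 3.10% in the other mice. Its skeletal muscle marker Myl1 (the only listed skeletal muscle gene in the table) was at 6767, against 1.44 to 7.91 in the others, and its 5 adipose markers summed to 80831, against 509 to 4431. Reads of 3 Y-linked genes (Kdm5d, Uty and Eif2s3y) were absent from Usp24WT mice M1364 and M1370 and present in the other 4 mice, so sex was uneven between the genotypes. In bulk specimens such as these, fewer cells of a type and less RNA per cell cannot be told apart.

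The promoters of the clock genes are shown because the feedback loops of the clock act through short elements of this kind. RefSeq promoters (GRCm38.p6, 250 bases before to 50 after a start) matched 9 of the 10 genes, all but Per2. The files were made on mm39, so these positions serve only to identify the sequences. The motifs searched on both strands were the E-box CACGTG, its variant CACGTT, the D-box TTATGTAA or TTACGTAA (bound by DBP, TEF and HLF), the ROR element TAGGTCA or TGGGTCA, and the cAMP response element TGACGTCA. No motif overlapped another in the windows printed. The sequences below run 5′ to 3′ on the gene's strand, with motifs in capitals, and come from chr11:69098699-69098998 (plus strand) for the upstream of its 2 starts, chr4:151044616-151044915 (minus strand), chr11:98775328-98775627 (minus strand) and, for the activator Bmal1 as the contrast, chr7:113207261-113207560 (plus strand).
Per1: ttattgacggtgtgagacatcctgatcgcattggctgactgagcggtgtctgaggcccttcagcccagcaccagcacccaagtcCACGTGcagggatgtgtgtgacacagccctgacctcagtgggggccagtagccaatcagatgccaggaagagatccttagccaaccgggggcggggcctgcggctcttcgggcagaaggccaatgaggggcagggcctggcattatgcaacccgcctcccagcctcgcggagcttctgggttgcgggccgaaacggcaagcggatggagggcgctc
Per3: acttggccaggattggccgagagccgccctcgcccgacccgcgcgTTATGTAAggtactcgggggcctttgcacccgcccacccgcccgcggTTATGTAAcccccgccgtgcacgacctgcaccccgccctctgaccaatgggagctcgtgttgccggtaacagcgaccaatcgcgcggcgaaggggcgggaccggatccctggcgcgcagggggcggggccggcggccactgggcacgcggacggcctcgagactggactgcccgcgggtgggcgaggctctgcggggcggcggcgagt
Nr1d1: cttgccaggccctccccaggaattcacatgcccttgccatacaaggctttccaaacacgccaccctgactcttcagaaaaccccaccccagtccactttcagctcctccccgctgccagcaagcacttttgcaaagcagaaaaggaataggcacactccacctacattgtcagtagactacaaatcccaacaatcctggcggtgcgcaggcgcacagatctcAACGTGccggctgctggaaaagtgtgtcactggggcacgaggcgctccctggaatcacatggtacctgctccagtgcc
Bmal1: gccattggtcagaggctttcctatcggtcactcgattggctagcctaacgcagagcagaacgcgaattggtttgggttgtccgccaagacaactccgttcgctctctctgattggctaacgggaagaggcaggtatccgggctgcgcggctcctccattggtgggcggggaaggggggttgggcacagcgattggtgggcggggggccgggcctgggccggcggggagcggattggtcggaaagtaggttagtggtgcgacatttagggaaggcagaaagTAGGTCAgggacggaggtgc

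An E-box was found in 2 of the 9 matched genes, Per1 (at -166 from the start) and Cry1 (at -60), against 7.15% of all 32851 promoters in the table. The units differ: a gene was counted if any of its promoters held the motif (Per1 has 2, Clock 3), whereas the shares are per promoter. The variant CACGTT was found in 3 of 9, Nr1d1 (at -28, on the opposite strand, hence AACGTG in the sequence), Cry1 and Cry2, against 4.68% of all promoters. Per3 held the D-box TTATGTAA at -205 and at -158, a motif present in 1.06% of promoters. No ROR element was found in the 9 genes (6.45% of promoters), whereas Bmal1 held TAGGTCA at 31 bases after a start and Nfil3, a repressor that binds D-boxes, held it at -12 on the opposite strand. The cAMP response element was in none of the 9 genes, Per1 included (1.79% of promoters). In Dbp, Npas2, Clock and Nr1d2 none of the motifs was in these windows, which says nothing of sites elsewhere. These matches are a description of letters, and binding was not measured.

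To ask whether the catalytic mutation went with another level of the clock genes, the genotypes were compared with limma-trend on log2(value + 1) over 16640 genes, of which 0 passed a Benjamini-Hochberg adjusted p of 0.05 (percent called 0; before adjustment 922 were under 0.05; 0 passed by edgeR and 36 by DESeq2). None of the 10 clock genes passed by limma-trend, edgeR or DESeq2. The number with an unadjusted p under 0.05 was 1, 1 and 2 by these tools, beside 922, 1144 and 1367 of all 16640 genes. Log2 fold changes (Usp24C1695A over Usp24WT) were positive in 4 of the 10 genes with a median of -0.16, beside 48.3% positive and a median of -0.02 over all tested genes. By limma-trend, 1 of 10 was lower at an unadjusted p under 0.05 (Per1; 2.93% of all genes) and 0 of 10 were higher (2.61% of all genes). Per1 was also the only member in which the genotypes did not overlap, with all Usp24C1695A mice below all Usp24WT mice (6.03% of all genes), and no member lay above (5.07% of all genes). In the other 9 genes the genotypes overlapped.

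**Figure D1:**
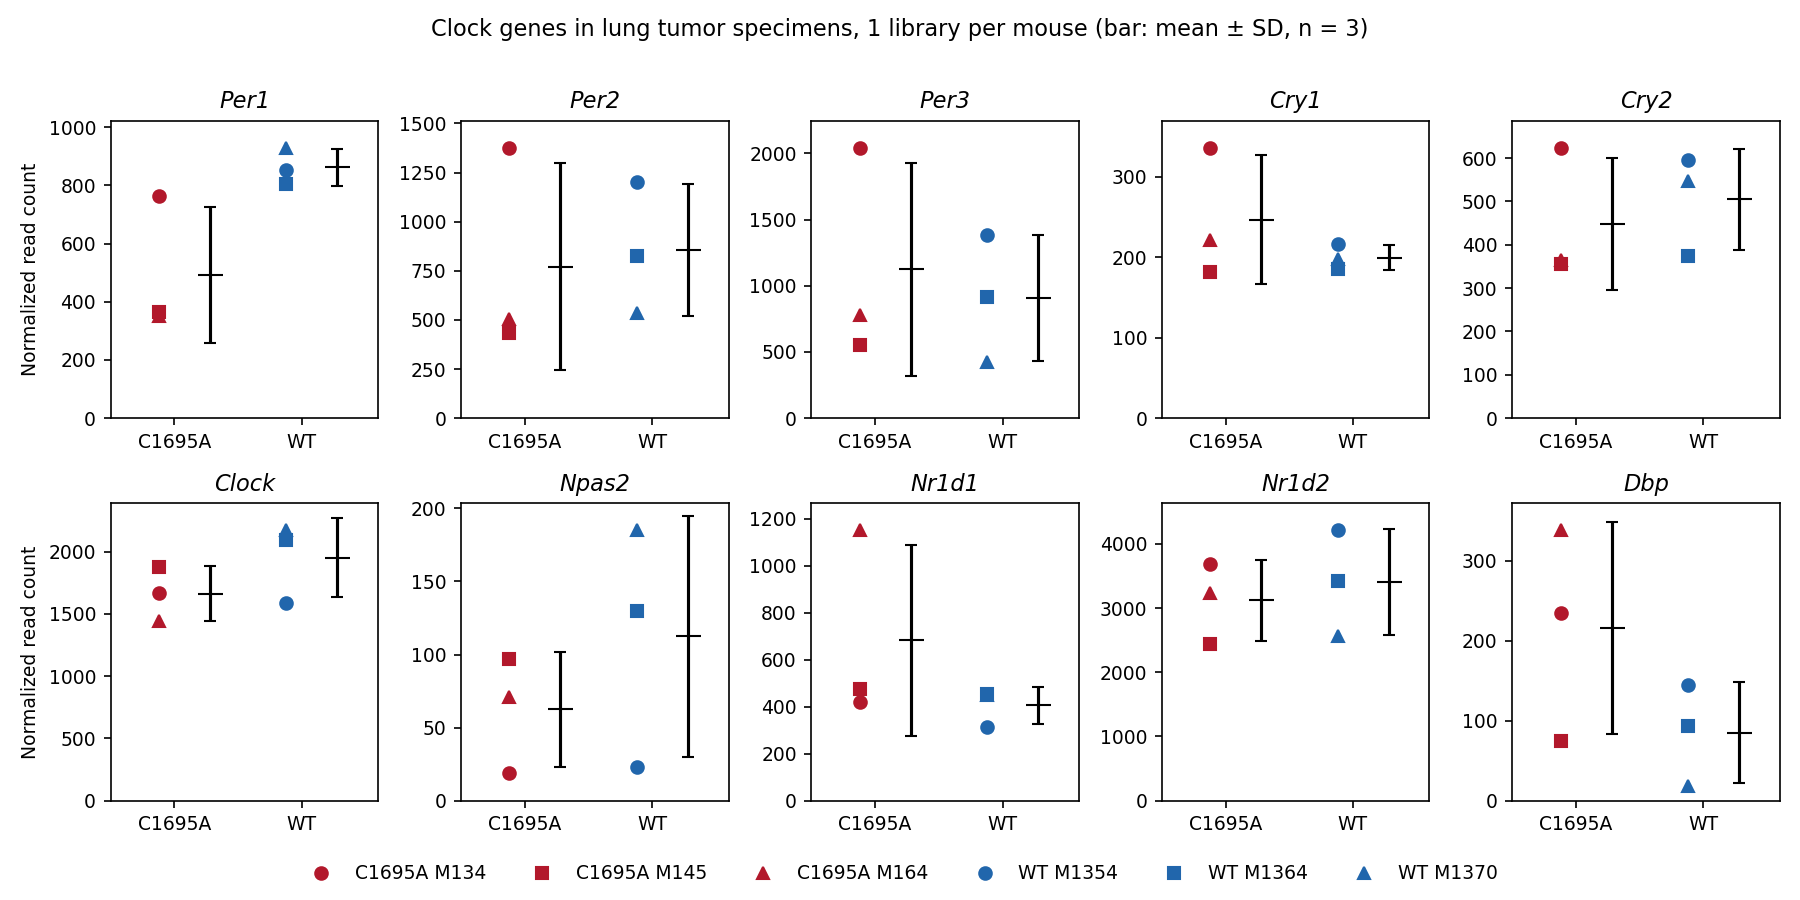
Normalized read counts (y axis, linear, from 0) of the 10 clock genes in Usp24C1695A mice (red, left) and Usp24WT mice (blue, right), 1 point per mouse, with the mean and SD of 3 mice as a bar. Per1 alone separates the genotypes, with 350 to 763 against 803 to 930, and Npas2, Dbp, Per2 and Per3 spread widely within each genotype.

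Per1, the period gene that also responds acutely to glucocorticoids and cAMP, was at 763, 363 and 350 normalized counts in Usp24C1695A mice M134, M145 and M164, against 853, 803 and 930 in Usp24WT mice M1354, M1364 and M1370. Mice M145 and M164 were low, whereas mouse M134 lay just under the Usp24WT range. The means were 492 ± 235 in Usp24C1695A mice and 862 ± 63.8 in Usp24WT mice (SD, n = 3 each), a log2 fold change of -0.90 (SE 0.30, limma-trend unadjusted p = 0.0158, adjusted p = 0.738). Its unadjusted p was 0.0604 without mouse M145 and 0.0509 without mouse M1370 by limma-trend, with log2 fold changes of -0.73 and -0.85.

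Per2, the period gene whose protein limits the activators in most tissues, was at 1378, 433 and 505 normalized counts in Usp24C1695A mice, against 1204, 828 and 538 in Usp24WT mice. Mice M134 and M1354 were high in their genotypes and the ranges overlapped (log2 fold change -0.28, SE 0.45). Per3, a period gene with a strong rhythm in peripheral tissues, was at 2045, 550 and 782 in Usp24C1695A mice, against 1382, 915 and 424 in Usp24WT mice. Here too mice M134 and M1354 were the highest of the 6, and the log2 fold change was 0.24 (SE 0.54). The highest Per3 value was 3.72 times the lowest within Usp24C1695A mice and 3.26 times within Usp24WT mice. Without mouse M134 the log2 fold change of Per3 turned to -0.31, and without mouse M1370 to -0.23. Per1 did not follow Per3 across the mice: the ratio of Per1 to Per3 was 0.373, 0.660 and 0.448 in Usp24C1695A mice, against 0.617, 0.877 and 2.19 in Usp24WT mice, and mouse M1370 was lowest for Per3 and highest for Per1.

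Cry1, the cryptochrome that represses the activators late in the cycle, was at 337, 182 and 222 normalized counts in Usp24C1695A mice, against 216, 186 and 197 in Usp24WT mice. Only mouse M134 lay outside the narrow range of the others (log2 fold change 0.26, SE 0.27). Cry2, its more weakly rhythmic paralog, was at 624, 356 and 364 in Usp24C1695A mice, against 595, 374 and 546 in Usp24WT mice (log2 fold change -0.20, SE 0.28). The low values of Cry2 were those of mice M145, M164 and M1364, and the genotypes overlapped. In the GENCODE M21 annotation 4.67% of the exonic bases of Cry2 are shared with a gene on the opposite strand, and whether counting used strand is not given in the sources used here.

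Clock, the constitutive partner of BMAL1, varied least of the 10 genes, with 1665, 1880 and 1439 normalized counts in Usp24C1695A mice, against 1585, 2096 and 2173 in Usp24WT mice (log2 fold change -0.23, SE 0.20). Its highest value was 1.51 times its lowest over the 6 mice. Npas2, the rhythmic paralog of Clock, was at 19.3, 96.95 and 71.3 in Usp24C1695A mice, against 22.9, 130 and 185 in Usp24WT mice. Each genotype held a mouse with very little Npas2, mouse M134 and mouse M1354, and the highest value of Npas2 was 9.62 times the lowest. The log2 fold change of -0.67 (SE 0.84) was therefore smaller than the spread among mice of the same genotype (residual SD 1.41 on the log2 scale), and it was 0.01 without mouse M134.

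Nr1d1, which encodes REV-ERBα, was at 419, 477 and 1152 normalized counts in Usp24C1695A mice, against 313, 455 and 448 in Usp24WT mice. Mouse M164 was 2.75 times the lowest mouse of its genotype, and the other 5 mice were between 313 and 477. The log2 fold change was 0.62 (SE 0.38, limma-trend adjusted p = 0.738) and was 0.16 without mouse M164. In the GENCODE M21 annotation Nr1d1 shares 8.55% of its exonic bases with Thra, the thyroid hormone receptor gene on the opposite strand. Thra was at 536, 531 and 944 in Usp24C1695A mice, against 444, 586 and 522 in Usp24WT mice, so that it too was highest in mouse M164. Nr1d2, which encodes REV-ERBβ, was at 3681, 2443 and 3231 in Usp24C1695A mice, against 4214, 3420 and 2568 in Usp24WT mice, with no mouse apart from the rest (log2 fold change -0.12, SE 0.24). The ratio of Nr1d1 to Nr1d2 was 0.357 in mouse M164 and 0.195 or less in the other mice.

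Dbp, a PAR-bZIP activator that carries the E-box signal to D-boxes, had the largest fold change of the 10 genes. It was at 235, 75.2 and 339 normalized counts in Usp24C1695A mice, against 144, 93.6 and 17.9 in Usp24WT mice. The genotypes overlapped, since mouse M145 was below mice M1354 and M1364, and the lowest value belonged to mouse M1370. The log2 fold change was 1.52 (SE 0.80, limma-trend unadjusted p = 0.0918, adjusted p = 0.738), and the highest of the 6 values was 18.96 times the lowest. The value depended on single mice: without 1 mouse it ranged from 0.64 (without M1370) to 2.15 (without M145, limma-trend unadjusted p = 0.0274), and it was 2.11 without M1354 (unadjusted p = 0.0330 by limma-trend). In limma-trend it was 0.62 with array weights (each library weighted by how well it matched the fit) and 0.90 with Myl1 as a covariate. With the mean of the Y-linked genes as a covariate it was 0.33, also in limma-trend. M1354 was the only Usp24WT mouse with Y-linked reads, so that fit in effect compared the Usp24C1695A mice with M1354 alone. Sphk2, which in that annotation shares 539 of the 2993 exonic bases of Dbp from the opposite strand, was at 190, 137 and 125 in Usp24C1695A mice, against 172, 117 and 165 in Usp24WT mice, a different order from that of Dbp.

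**Figure D2:**
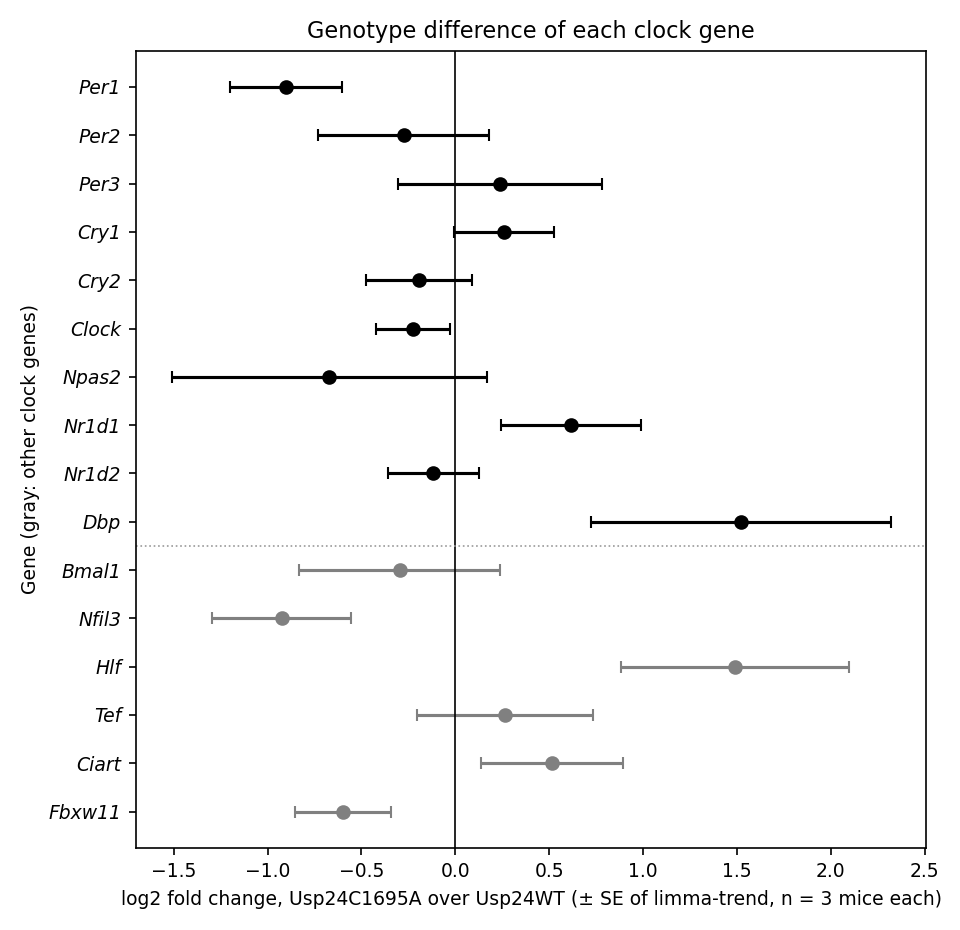
Log2 fold change of Usp24C1695A over Usp24WT (x axis, with the SE of limma-trend, 3 mice each) for the 10 clock genes (black) and 6 other clock genes (gray). Dbp at 1.52 and Npas2 at -0.67 have the widest intervals (SE 0.80 and 0.84), and Per1 at -0.90 has an SE of 0.30.

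The spread between mice of the same genotype was wide in several of these genes. The residual SD of Npas2 (1.41 on the log2 scale) was above that of 97.6% of the tested genes, that of Dbp (1.36) above 97.3%, that of Per3 (0.92) above 91.0% and that of Per2 (0.76) above 85.2%. The residual SD of Clock (0.22) was in contrast above that of 21.5% of genes. The median residual SD was 0.53 over the 10 clock genes and 0.38 over all tested genes.

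Of the 22 other genes of the pathway, all in the table and all tested, 1 was higher (2.61% of all tested genes) and 2 were lower (2.93% of all) at an unadjusted limma-trend p under 0.05, and nothing about the list is read from these counts. None of the 22 passed the adjusted threshold, and in none did all Usp24C1695A mice lie above (5.07% of all) or below (6.03% of all) all Usp24WT mice. Log2 fold changes were positive in 11 of the 22, with a median of 0.02, beside 48.3% and -0.02 over all tested genes. Hlf, a PAR-bZIP factor like Dbp, was at 274, 123 and 681 normalized counts in Usp24C1695A mice, against 182, 77.7 and 71.4 in Usp24WT mice (log2 fold change 1.49, SE 0.61, limma-trend unadjusted p = 0.0383). Mouse M164 was far above the rest, and without 1 mouse the log2 fold change ranged from 0.86 (without M164) to 2.09 (without M145). It was 0.38 with array weights and 0.62 with the Myl1 covariate, neither with an unadjusted limma-trend p under 0.05. With the Y-linked covariate, in effect a comparison with mouse M1354 alone, it was 0.65. Nfil3, the D-box repressor that shares the ROR element of Bmal1, was at 84.1, 145.4 and 128.7 in Usp24C1695A mice, against 135, 250 and 322 in Usp24WT mice (log2 fold change -0.92, SE 0.37, limma-trend unadjusted p = 0.0353). Only mouse M1354 overlapped the Usp24C1695A range. Without 1 mouse the log2 fold change of Nfil3 ranged from -1.28 (without M1354) to -0.66 (without M1370). Its unadjusted limma-trend p was 0.109 without M134, 0.107 without M1364 and 0.147 without M1370, and under 0.05 without any other mouse. With array weights the log2 fold change was -0.56 (unadjusted p = 0.150 by limma-trend). It was -0.21 with the Y-linked covariate, in effect a comparison with mouse M1354 alone. Fbxw11, a subunit of a ubiquitin ligase that turns over PER proteins, was at 1024, 1113 and 632 in Usp24C1695A mice, against 1443, 1092 and 1590 in Usp24WT mice (log2 fold change -0.60, SE 0.26, limma-trend unadjusted p = 0.0461). The genotypes overlapped for Fbxw11, in mice M145 and M1364. Its unadjusted p was 0.0591 by edgeR and 0.0574 by DESeq2, and without mouse M164 its log2 fold change was -0.35 (unadjusted p = 0.121 by limma-trend), and with the Myl1 covariate -0.28.

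Bmal1, listed in the table under its older symbol Arntl, was at 102, 313 and 228 normalized counts in Usp24C1695A mice, against 123, 242 and 456 in Usp24WT mice (log2 fold change -0.30, SE 0.54). As for Npas2, mice M134 and M1354 were the lowest of the 6 and mouse M1370 the highest. Tef, another PAR-bZIP factor, was at 2855, 855 and 1265 in Usp24C1695A mice, against 1998, 1149 and 776 in Usp24WT mice (log2 fold change 0.26, SE 0.47). As for Per3, M134 and M1354 were the highest and M1370 the lowest. Ciart, a repressor of the activator pair, was at 172, 165 and 210 in Usp24C1695A mice, against 105, 232 and 83.7 in Usp24WT mice (log2 fold change 0.51, SE 0.38).

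The rhythm genes of each library were then read against each other, with each gene centred on its own mean of log2(value + 1) over the 6 mice. In mouse M134, Npas2 was at -1.71 and Bmal1 at -1.06, while Per3 was at 1.21, Dbp at 1.13 and Per2 at 0.90. Mouse M1354, of the other genotype, had the same signs, with -1.47 for Npas2, -0.81 for Bmal1, 0.65 for Per3, 0.43 for Dbp and 0.71 for Per2. Nr1d1 did not go with Per3 and Dbp here, at -0.24 in mouse M134 and -0.66 in mouse M1354. Cry1 did not go with Npas2, at 0.62 in mouse M134 and -0.01 in mouse M1354. Mouse M1370 had the reverse, with 1.49 for Npas2, 1.08 for Bmal1, -1.06 for Per3, -2.52 for Dbp and -0.46 for Per2. Mouse M145 leaned the same way as mouse M1370, at 0.57 for Npas2, 0.54 for Bmal1, -0.68 for Per3 and -0.50 for Dbp. Mice M164 and M1364 lay between these for Bmal1 (0.08 and 0.17) and for Per3 (-0.17 and 0.05). Npas2 was at 0.13 in mouse M164 and at 0.98 in mouse M1364, above mouse M145. In mouse M164, Dbp (1.65) and Nr1d1 (1.22) were high although Per1 (-0.84) and Per2 (-0.55) were low, a combination seen in no other mouse.

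**Figure D3:**
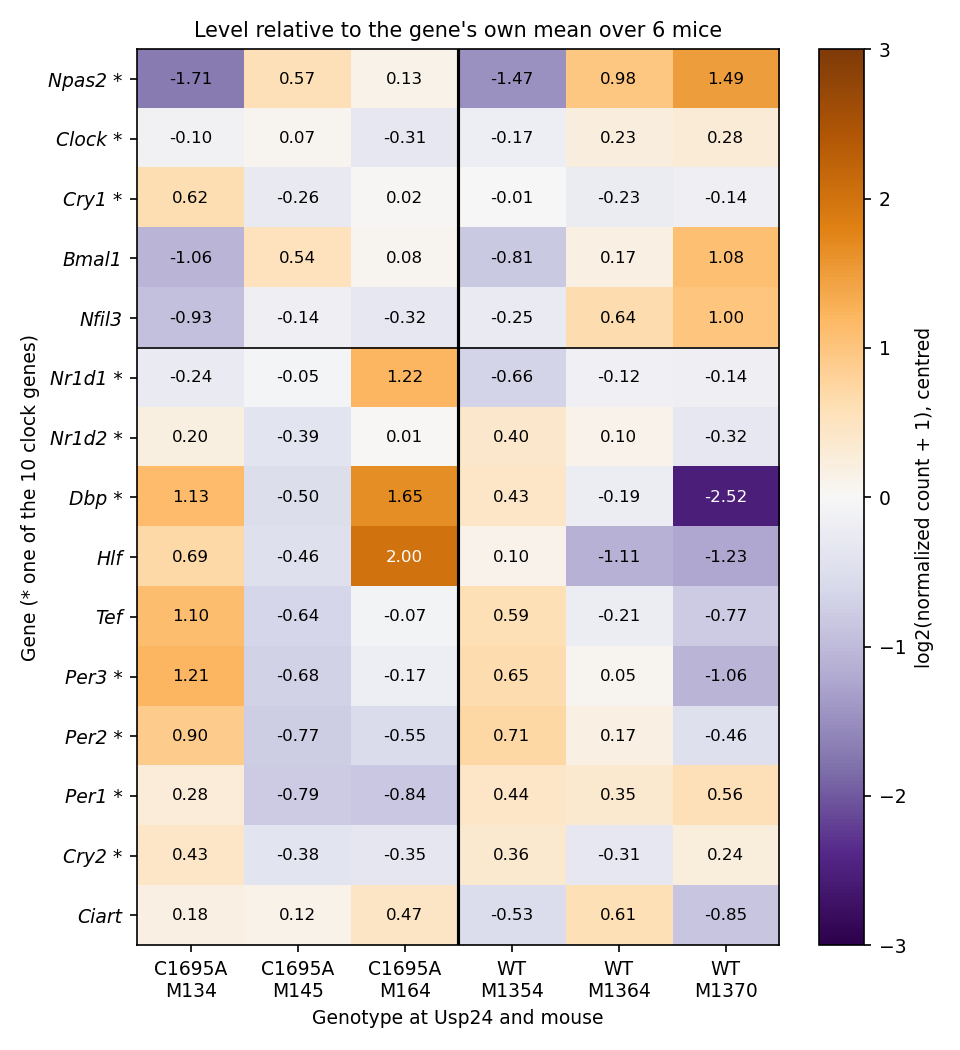
Level of 10 clock genes (asterisks) and 5 related genes (rows) in 3 Usp24C1695A mice (left) and 3 Usp24WT mice (right), as log2(normalized count + 1) minus the gene's mean over the 6 mice. The columns of mice M134 and M1354 share low Npas2 (-1.71 and -1.47) and high Per3 (1.21 and 0.65), and that of mouse M1370 shows the reverse (1.49 and -1.06).

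As a single value per library, the mean of Per1, Per2, Per3, Nr1d1, Nr1d2 and Dbp minus the mean of Npas2, Clock and Cry1 (both centred, log2 scale) was 0.97, -0.66 and 0.27 in Usp24C1695A mice M134, M145 and M164, against 0.88, -0.27 and -1.20 in Usp24WT mice M1354, M1364 and M1370. The genotypes interleaved, and each held a library near the top and a library below 0. Of the subtracted genes, Npas2 spanned -1.71 to 1.49, Clock -0.31 to 0.28 and Cry1 -0.26 to 0.62, so Npas2 weighed most in that mean. The ratio of Per3 to Bmal1 counts was 20.0, 1.76 and 3.43 in Usp24C1695A mice, against 11.3, 3.79 and 0.930 in Usp24WT mice, again with mice M134 and M1354 above the rest. The ratio of Dbp to Bmal1 was 2.30, 0.240 and 1.49 in Usp24C1695A mice, against 1.18, 0.387 and 0.0392 in Usp24WT mice. As the time of collection is not in the labels, the hour of the cycle and the genotype cannot be told apart for these genes.

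**Figure D4:**
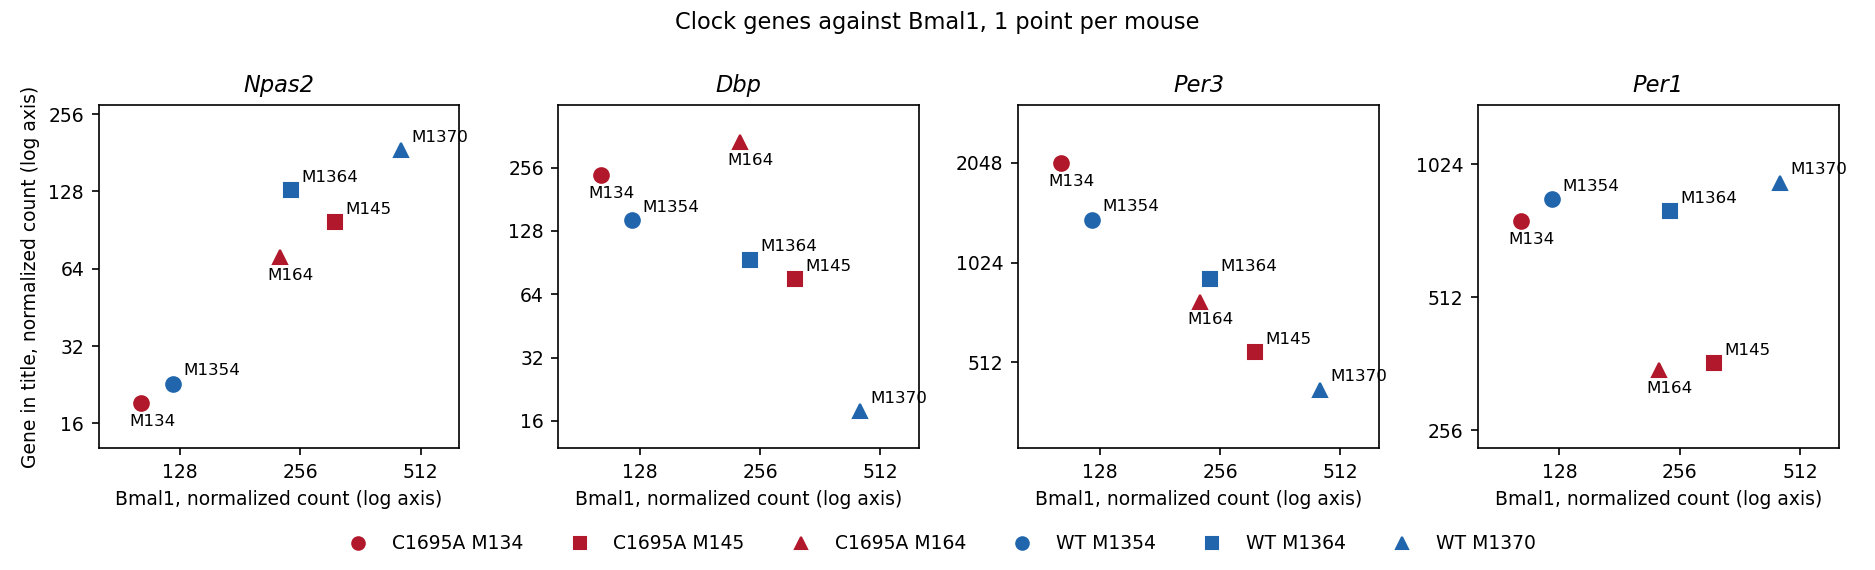
Normalized counts of Npas2, Dbp, Per3 and Per1 (y axes, log) against Bmal1 (x axes, log), 1 point per mouse, Usp24C1695A in red and Usp24WT in blue. Npas2 is lowest and Per3 highest in the mice with least Bmal1 (M134 and M1354, at 102 and 123), whereas Per1 is low in mice M145 and M164 (363 and 350) at Bmal1 counts within the range of the others.

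Per1 did not follow this order. Mice M134 and M1354, with the lowest Bmal1, had 763 and 853 normalized counts of Per1, whereas among the 4 mice with more Bmal1 the Usp24C1695A mice M145 and M164 had 363 and 350, against 803 and 930 in the Usp24WT mice M1364 and M1370. With Bmal1 as a covariate, a fit chosen after the values were seen, the log2 fold change of Per1 was -0.99 (limma-trend unadjusted p = 0.0110, adjusted p = 0.876). The split of the mice by Bmal1 was likewise made after Per1 was seen to separate the genotypes. A Bmal1 level does not give the hour of collection, so the hour and the genotype cannot be told apart for Per1 either. With Myl1 as a covariate it was -0.62 (unadjusted p = 0.0852 by limma-trend). With the mean of the Y-linked genes as a covariate, in effect a comparison with mouse M1354 alone, it was -0.90 in limma-trend. Mice M145 and M164 were also those with high B cell markers (summed levels of 8800 and 3374 normalized counts, against 163 in mouse M134 and 159 to 219 in Usp24WT mice) and high adipose markers (4431 and 80831, against 661 in mouse M134 and 509 to 638 in Usp24WT mice), and the part of these tissues in the level of Per1 was not tested. Of 8 listed genes that respond to glucocorticoids, as Per1 does, 4 had a positive log2 fold change and 1, Errfi1, lay below in all Usp24C1695A mice. Of 10 immediate early and cAMP-responsive genes, 5 had a positive log2 fold change and 1, Crem, lay below. Over all tested genes 48.3% were positive and 6.03% lay below, so a single gene in lists of this size is no result about either list, and both genes were named after their values were seen.

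The pairs of mice were compared over the 10 clock genes and over all tested genes, by the median absolute difference on the log2(value + 1) scale. Of the 15 pairs, Usp24C1695A mouse M134 and Usp24WT mouse M1354 were closest over the clock genes (0.22), although over all genes they were the fifth closest pair (0.31). None of the 10 genes was more than 1 apart in this pair, beside 9.15% of all genes, so nothing is read from that count. Usp24WT mice M1354 and M1370 were in contrast the closest pair over all genes (0.20), with 6.35% of genes more than 1 apart, and differed by 0.62 over the clock genes, with 4 of 10 more than 1 apart. Usp24C1695A mice M134 and M145 likewise differed by 0.98 over the clock genes and by 0.29 over all genes. Over the clock genes the pairs within a genotype spanned 0.39 to 0.98 and the pairs between genotypes 0.22 to 1.02. The range within a genotype lay inside that between genotypes. There were fewer pairs within a genotype than between, and pairs share mice, so nothing about genotype is read from these ranges.

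**Figure D5:**
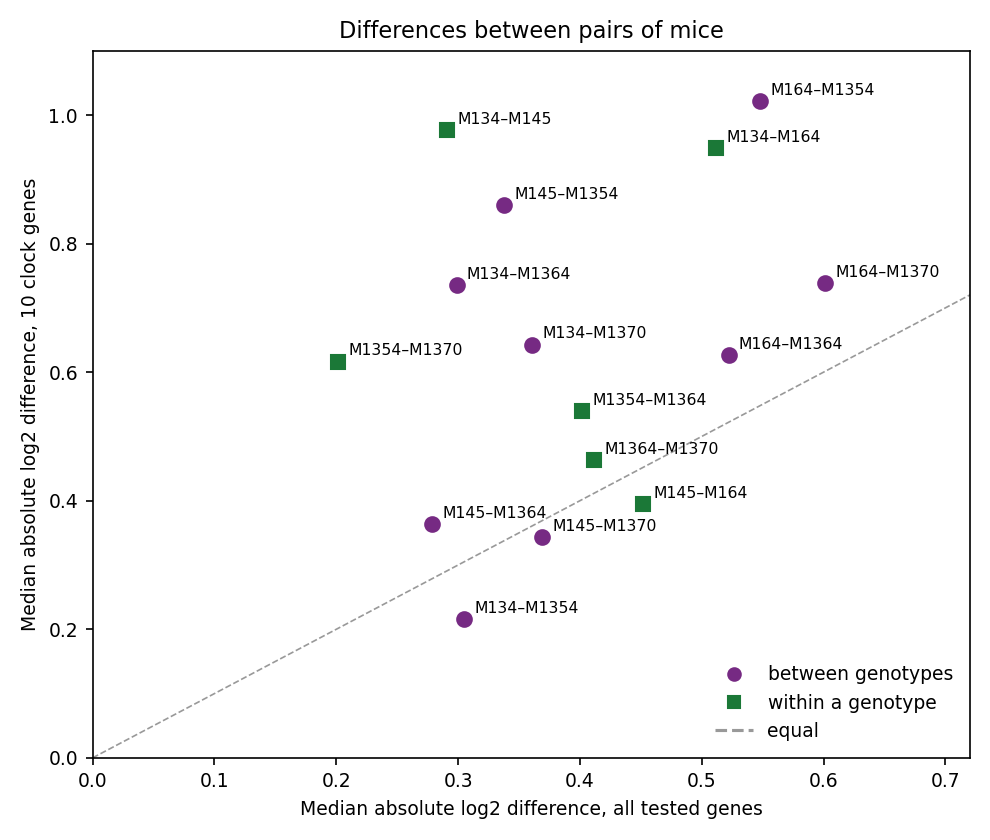
Median absolute log2 difference between each of 15 pairs of mice over the 10 clock genes (y axis) and over all tested genes (x axis), for pairs between genotypes (circles) and within a genotype (squares), with a dashed line where both are equal. The pair M134 and M1354 lies lowest (0.22), below the line, and the pair M1354 and M1370 lies far above it (0.62 against 0.20).

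The genes whose profile over the 6 mice was nearest to that of Dbp and of Npas2 were sought among 10738 genes outside the 10 with a mean of at least 100, by the root mean square difference of centred log2 values. Nearest to Npas2 was Bmal1 (0.53), followed by the oviductal glycoprotein gene Ovgp1 (0.59), the protease gene Adamts9 (0.66), the interleukin-18 receptor gene Il18rap (0.66) and Acoxl (0.68). Among the 5 genes nearest to Dbp were Scgb3a2, a secretory gene of the airway (0.48), Tnni3, cardiac troponin I (0.62), Sult1d1, a sulfotransferase (0.66), and Bbof1 (0.69). Scgb3a2 was at 1568, 1180 and 3605 normalized counts in Usp24C1695A mice, against 1188, 993 and 323 in Usp24WT mice, with the highest value in mouse M164 and the lowest in mouse M1370, as for Dbp. Tnni3 was at 152, 104 and 483 in Usp24C1695A mice, against 62.3, 104 and 19.7 in Usp24WT mice. The listed club cell and heart muscle markers were also high where Dbp was highest, in mouse M164. That mouse was likewise highest in Myl1 (6767) and in the summed adipose (80831), fibroblast (27572) and endothelial (14455) markers. It was lowest in the summed alveolar type 1, alveolar type 2 and macrophage markers, and the B cell and T cell markers were highest in mouse M145. The club cell markers summed to 39059 to 87392 in Usp24C1695A mice and 20933 to 41094 in Usp24WT mice, and the heart muscle markers to 407 to 5338 in Usp24C1695A mice and 135 to 202 in Usp24WT mice, and their part in the level of Dbp was not tested.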

How the data were processed

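The table deposited by the authors holds a signal: read counts per gene, each library scaled by its own size factor. For alignment the submitters list HISAT2 (2.1.0) with the mm39 genome. How reads were counted, the annotation and any gene filter are not given in the sources used here. Whole reads were recovered (100% of 107922 values whole within 1e-06), which for M145 rests on the residuals, its step being close to 1. The test was limma-trend on log2(value + 1), for genes at 10 or more in at least 3 of the 6 libraries, with Benjamini-Hochberg adjustment over all 16640 and no covariate. Fold changes are differences of group means on that scale, which understates those of low genes. EdgeR quasi-likelihood and DESeq2 were run on the recovered reads, and 386 genes without an adjusted p by DESeq2 were not counted. P-values set the genotype difference against the spread between 3 mice per genotype. In limma-trend that spread, and with it the printed SE, is moderated by the spread of the other genes. For widely spread genes such as Npas2 and Dbp, that SE is smaller than their own mice alone would give. The residual SD is not moderated.

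The members and gene lists were chosen with earlier results of these data known. Named were all members, other clock genes at an unadjusted p under 0.05, Bmal1, Nfil3, Tef, Hlf, Ciart, and the 5 genes nearest to Dbp and to Npas2, of which 1 is not reported here. Thra, Sphk2, Errfi1 and Crem were named after their values were seen. Alternatives changed the pseudocount, filter, normalization, test, weights, covariates and mice. The software was limma 3.58.1, DESeq2 1.42.0 and edgeR 4.0.16 in R 4.3.3, and pandas 2.3.3 and matplotlib 3.10.9 in Python 3.11.15. The tests were checked on simulated counts with a spread typical of each gene's level, and the wide spread of Npas2 and Dbp was not simulated.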

Additional observations from a re-analysis of the deposited data

How the results depend on the processing

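No paired analysis was possible because the mouse numbers in the labels are not shared between the genotypes. Under 18 alternatives, 0 of the 10 clock genes passed an adjusted p of 0.05 (the lowest by limma-trend was 0.0646, for Per1 without M134), and 4 of the 10 (Per1, Cry2, Nr1d1 and Dbp) kept their direction under all of them. DESeq2 called 36 genes in all against 0 by limma-trend, and leaving out 1 mouse gave 0 to 40 (40 without mouse M134, 5 without mouse M1354). The number of clock genes with an unadjusted p under 0.05, 1 by limma-trend, was 2 by DESeq2, 2 with array weights, 0 with the Y-linked covariate, 0 with the skeletal muscle covariate and 0 to 3 without a mouse (3 without mouse M134 or mouse M1354, 0 without mouse M1370). That of the 22 other clock genes, 3, was 5 with array weights, 1 with the Y-linked covariate, 0 with the skeletal muscle covariate and 0 to 6 without a mouse (6 without mouse M145, 1 without mouse M164, 0 without mouse M1370). For array weights, covariates and left-out mice, the share of all genes under 0.05 is not given here. Nothing about the clock genes is therefore read from these counts, and the cause was not tested. The direction turned with array weights for Per3 (-0.29), Cry1 (-0.0045), Npas2 (0.35), Bmal1 (0.27) and Tef (-0.32). It turned with the Y-linked covariate for Per3 (-0.53), Clock (0.058), Npas2 (1.14), Bmal1 (0.66) and Tef (-0.46), and with the Bmal1 covariate, added after the values were seen, for Per3 (-0.065). Without 1 mouse, log2 fold changes ranged from -0.80 to 0.038 for Per2, -0.31 to 0.64 for Per3, -1.57 to 0.013 for Npas2, 0.64 to 2.15 for Dbp, -0.30 to 0.053 for Nr1d2, -0.77 to 0.17 for Bmal1 and -0.22 to 0.65 for Tef. The values of the clock pattern per library kept their sign with a pseudocount of 5, with TMM and with Bmal1 added. There were 3 mice per genotype, and the time of collection is not in the labels.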
